A study of Mus musculus with 6 samples.

Results

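Activated CD4 T cells secrete growth factors that act on myeloid cells, and 8 genes of this kind, ligands and receptors, were examined in the 6 libraries of the series. The ligands were *Il3*, *Csf2* (GM-CSF), *Csf1* (M-CSF), *Il24* and *Lif*, and the receptor genes were *Il3ra*, *Csf2rb* and *Csf2rb2*. The 8 genes were picked by family out of 56748 listed genes, and they were selected on values of the same 6 libraries, because several of the ligands were already known to be higher in libraries labelled *Pgam* ASO. Their own differences between the groups are therefore given as a description, without a test. All 8 passed the filter on low counts, which left 14936 genes.

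IL-3, GM-CSF and IL-5 each bind an alpha chain of their own and signal through a shared beta chain, JAK2 and STAT5. In mice the beta chain has a close relative, encoded by *Csf2rb2*, that pairs with the IL-3 receptor alpha chain only. T cells make IL-3 and GM-CSF after stimulation of the T cell receptor, and both cytokines support the production and activity of granulocytes, macrophages, mast cells and basophils. IL-24 belongs to the IL-10 and IL-20 family and binds receptors built from IL-20RB with IL-20RA or IL-22RA1, which are found mainly on epithelial cells. LIF belongs to the IL-6 family and signals through its own receptor chain together with gp130, and M-CSF acts through the receptor tyrosine kinase CSF1R.

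The series compares naïve CD4 T cells from C57BL/6 J WT mice aged 6 to 10 weeks, cultured for 3 days under Treg polarizing conditions with antisense oligonucleotides (ASOs), which are short synthetic strands that pair with a transcript. All cultures received antibodies to CD3 and CD28, IL-2, TGF-β, and blocking antibodies to IFNγ and IL-4. In 3 of them the ASO was a scrambled control, in the other 3 it was directed at *Pgam*, in both cases at 10 μM from the start of culture, and polyA RNA was taken from unsorted cells. The comparison asks which transcripts differ when an ASO against phosphoglycerate mutase, a glycolytic enzyme, is present during Treg induction. The study speaks of 3 biological replicates, but the labels do not say whether they came from separate animals, so the p-values measure the spread between these samples. Total counts were 17588755, 18032805 and 16231127 in scrambled ASO replicates 1 to 3 and 16589933, 15860476 and 16803881 in *Pgam* ASO replicates 1 to 3.

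The transcripts targeted by the ASO did not separate the labels. *Pgam1* had 600, 478 and 707 CPM (counts relative to the library total, scaled by the TMM method) in scrambled ASO replicates 1 to 3 and 658, 661 and 707 CPM in *Pgam* ASO replicates 1 to 3. Its groups overlapped, and its log2 fold change was 0.18 ± 0.13 (SE, adjusted p = 0.331). Adjusted p here and below come from the quasi-likelihood test of edgeR over all tested genes. *Pgam2*, the muscle form of the enzyme, had 5.23, 6.75 and 2.85 CPM against 2.98, 2.69 and 2.60 CPM, and its log2 fold change was -0.84 ± 0.31 (adjusted p = 0.0854). That p became 0.0144 without scrambled ASO replicate 3 and 0.0292 without the filter on low counts, within a range of 0.0144 to 0.286 over the alternatives. RNA levels thus did not verify which ASO a library received, and the groups below are named by their labels. The T cell identity in the labels could be checked, since all 8 T cell markers were counted in every library and *Cd4* stood at 770 ± 36.2 CPM (mean ± SD of the libraries' values) in scrambled and 666 ± 26.6 CPM in *Pgam* ASO libraries.

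*Il3* was higher in every library labelled *Pgam* ASO than in any labelled scrambled ASO. Its estimated counts were 114, 42 and 85 in scrambled ASO replicates 1 to 3 and 922, 576 and 445 in *Pgam* ASO replicates 1 to 3. In CPM this was 4.65 ± 2.14 against 40.2 ± 15.7 (SD, n = 3 each), a ratio of means of 8.64 and a fitted log2 fold change of 3.12 ± 0.43 (SE). *Csf2*, the neighbouring gene, had 97, 61 and 85 counts in the scrambled ASO libraries and 901, 564 and 456 in the *Pgam* ASO libraries. Its CPM rested at 4.67 ± 1.20 against 39.7 ± 14.8 (SD, n = 3 each), with a ratio of means of 8.5 and a log2 fold change of 3.09 ± 0.31. The counts of these 2 genes stayed close to each other, so that the ratio of *Il3* to *Csf2* counts was 1.18, 0.689 and 1 in the scrambled ASO libraries and 1.02, 1.02 and 0.976 in the *Pgam* ASO libraries.

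*Il24* had the largest SE of the log2 fold change among the 5 ligands. It had 181, 75 and 250 counts in scrambled ASO replicates 1 to 3 and 2228, 1334 and 996 counts in *Pgam* ASO replicates 1 to 3, and the groups did not overlap. Its CPM was 9.91 ± 5.72 against 94.3 ± 40.4 (SD, n = 3 each), which gave a ratio of means of 9.52 and a log2 fold change of 3.26 ± 0.55. *Lif* was the ligand with the most counts, 2133, 1406 and 2339 in the scrambled ASO libraries and 10082, 8758 and 7286 in the *Pgam* ASO libraries. Here CPM was 114 ± 34.9 against 540 ± 99.4 (SD, n = 3 each), with a ratio of means of 4.75 and a log2 fold change of 2.25 ± 0.25. *Csf1*, by contrast, had 64, 91 and 49 counts against 62, 36 and 54, its groups overlapped, and its log2 fold change was -0.31 ± 0.28.

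**Figure D1:**
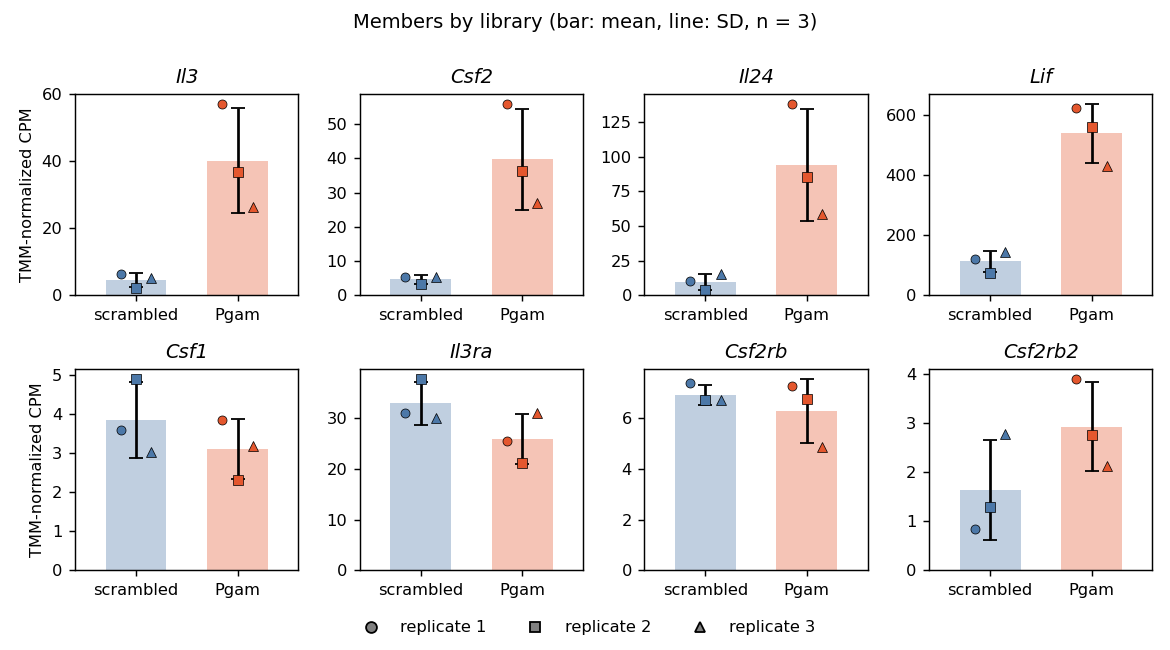
TMM-normalized CPM of the 8 genes in each library, with bars for group means, lines for the SD (n = 3) and symbols for replicates 1 to 3. In the top row (*Il3*, *Csf2*, *Il24*, *Lif*) the *Pgam* ASO libraries lie above all scrambled ASO libraries, and in the bottom row (*Csf1*, *Il3ra*, *Csf2rb*, *Csf2rb2*) the groups overlap.

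The *Pgam* ASO libraries kept a common order for these 4 ligands, and the scrambled ASO libraries shared the lowest place. *Pgam* ASO replicate 1 was the highest and replicate 3 the lowest of its group for *Il3*, *Csf2*, *Il24* and *Lif*, and scrambled ASO replicate 2 was the lowest of its group for all 4. The order within the *Pgam* ASO libraries was shared by *Csf2rb* and *Csf2rb2*, so it was not particular to the ligands. Over all genes, the libraries farthest apart were scrambled ASO replicate 2 and *Pgam* ASO replicate 1, with a chi-square of 76.3 per degree of freedom. Between libraries of the same label that value ran from 6.75 to 23.6, so no library was a copy of another. Leaving out *Pgam* ASO replicate 1 gave the lowest log2 fold changes of *Il3*, *Csf2* and *Il24*, 2.77, 2.76 and 2.88, and leaving out scrambled ASO replicate 2 gave the lowest of *Lif*, 2.03.

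Among the 14936 tested genes, 2565 (17.2%) had an adjusted p under 0.05, 1199 (8.03%) of them with higher and 1366 (9.15%) with lower values in *Pgam* ASO libraries. By the same call, 4 of the 8 genes were higher and 0 were lower. The groups did not overlap for 5894 tested genes (39.5%), with *Pgam* ASO libraries higher for 2930 (19.6%), and 4 of the 8 genes had such separate groups. Because the genes were chosen by this contrast, nothing is read from these counts. By fitted log2 fold change *Il24*, *Il3* and *Csf2* took places 7, 8 and 9 of all tested genes and *Lif* took place 37. High places follow from that choice, so nothing is read from them either. The number of calls depended strongly on single libraries, with 620 and 1256 genes without scrambled ASO replicates 1 and 2 and 871 and 391 without *Pgam* ASO replicates 1 and 2.

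*Il3* (ENSMUSG00000018914, chr11:54265303-54267277, minus strand) and *Csf2* (ENSMUSG00000018916, chr11:54247271-54249667, minus strand) lie 17.6 kb apart from start to start on GRCm38. *Lif* (ENSMUSG00000034394, chr11:4257557-4272514, plus strand) lies far from them on the same chromosome. The set of RefSeq promoters used here (build GRCm38.p6) had an entry for 6 of the 8 genes, and none for *Il24* and *Csf2rb*. The 250 bases before the RefSeq start are printed for *Il3*, *Csf2* and *Lif*, the ligands of this set that were higher together and have an entry. Capitals mark GGAAA, the core bound by NFAT and other factors, and TGANTCA, an AP-1 element, on either strand (TTTCC is GGAAA on the other strand), and these 2 motifs do not overlap here.
Il3: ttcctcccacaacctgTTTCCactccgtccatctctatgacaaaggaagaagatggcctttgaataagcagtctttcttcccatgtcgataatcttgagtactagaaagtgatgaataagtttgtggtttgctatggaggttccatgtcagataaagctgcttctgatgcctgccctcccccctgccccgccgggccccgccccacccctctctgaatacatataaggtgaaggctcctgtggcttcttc
Csf2: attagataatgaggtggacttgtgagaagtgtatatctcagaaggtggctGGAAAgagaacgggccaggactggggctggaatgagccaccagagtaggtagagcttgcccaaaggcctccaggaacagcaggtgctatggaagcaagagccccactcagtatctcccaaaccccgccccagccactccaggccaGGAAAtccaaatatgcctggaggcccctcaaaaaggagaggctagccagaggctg
Lif: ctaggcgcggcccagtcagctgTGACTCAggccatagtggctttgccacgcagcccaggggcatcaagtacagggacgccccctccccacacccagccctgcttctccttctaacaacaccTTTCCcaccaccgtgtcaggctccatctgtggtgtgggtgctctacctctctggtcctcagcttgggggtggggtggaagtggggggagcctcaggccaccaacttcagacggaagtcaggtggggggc
The windows are chr11:54267280-54267529 for *Il3* and chr11:54249900-54250149 for *Csf2*, both read on the minus strand, and chr11:4257318-4257567 on the plus strand for *Lif*. The RefSeq start lies 2 bases from the GENCODE start for *Il3* and 11 bases for *Lif*, but 232 bases upstream of it for *Csf2*, so the *Csf2* window lies farther from the GENCODE gene than the other windows.

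GGAAA was found at -234 in *Il3*, at -200 and -55 in *Csf2*, and at -129 in *Lif*, counted from the RefSeq start. *Csf1*, whose groups overlapped, held it at -190, -154 and -83. GGAAA is a common string, present in 55.6% of all 32851 promoters of this length. TGANTCA was found in *Lif*, at -228, and is held by 6.75% of promoters. Other motifs searched were TGTGGT, a RUNX element held by 14.0% of promoters, which occurred at -128 in *Il3* and -102 in *Lif*, and TATAA, held by 22.8%, which occurred at -29 in *Il3*. TTCNNNGAA, a STAT element held by 7.02% of promoters, was not in any of the 3 windows and occurred at -15 in *Csf2rb2*. A match describes the letters of a window and does not show that a factor binds there.

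The receptor genes did not follow the ligands. *Il3ra* (ENSMUSG00000068758), the alpha chain for IL-3, had 553, 701 and 484 counts in scrambled ASO replicates 1 to 3 and 411, 331 and 526 in *Pgam* ASO replicates 1 to 3. Its groups overlapped, at 33.0 ± 4.26 against 26.0 ± 4.96 CPM (SD, n = 3 each), with a log2 fold change of -0.35 ± 0.15 (SE). *Csf2rb* (ENSMUSG00000071713), the shared beta chain, had 131, 124 and 108 against 117, 105 and 82 counts. It stood at 6.92 ± 0.391 and 6.29 ± 1.27 CPM, and its log2 fold change of -0.14 ± 0.20 became 0.02 without *Pgam* ASO replicate 3. *Csf2rb2* (ENSMUSG00000071714), the IL-3 specific beta chain, had 15, 24 and 45 against 63, 43 and 36 counts. Its groups overlapped as well, at 1.64 ± 1.02 against 2.93 ± 0.904 CPM, with a log2 fold change of 0.85 ± 0.43 that lay between 0.53 and 1.45 over the alternatives.

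The 2 beta chain genes are paralogs whose starts lie 20 kb apart on chromosome 15, on opposite strands. Of the 31-base stretches in the GENCODE transcripts of *Csf2rb2*, 28.6% also occur in *Csf2rb*, and 18.8% of those of *Csf2rb* occur in *Csf2rb2*, so the split of reads between them is uncertain. The share of *Csf2rb2* in the summed counts of both was 10.3% (95% exact binomial interval 5.87 to 16.4) in scrambled ASO replicate 1, 16.2% (10.7 to 23.2) in replicate 2 and 29.4% (22.3 to 37.3) in replicate 3. In the *Pgam* ASO libraries the share was 35% (28.1 to 42.4), 29.1% (21.9 to 37.1) and 30.5% (22.4 to 39.7). Scrambled ASO replicate 3 lay within the range of the *Pgam* ASO libraries, so the groups overlapped, and the intervals cover counting error only. Summed before the fit, the pair had a log2 fold change of 0.11 ± 0.20. *Csf2* shares 9.22% of its stretches with other genes, mainly with the antisense gene *Gm12223*, which had 0 to 6 counts per library. *Il3*, *Csf1* and *Il24* shared none.

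Levels of different genes were compared as CPM per kb of the longest coding GENCODE transcript. In scrambled ASO libraries *Lif* was the highest at 28.2 ± 8.68 CPM per kb (SD, n = 3), followed by *Il3ra* at 14.3 ± 1.84, *Il24* at 8.38 ± 4.84, *Il3* at 7.39 ± 3.40 and *Csf2* at 5.84 ± 1.5. *Il3ra*, *Il24*, *Il3* and *Csf2* overlapped from each to the next in that order. *Csf2rb* at 1.41 ± 0.0798, *Csf1* at 0.922 ± 0.231 and *Csf2rb2* at 0.347 ± 0.215 CPM per kb came below, each apart from the next. In *Pgam* ASO libraries the order began with *Lif* at 134 ± 24.7 CPM per kb, *Il24* at 79.8 ± 34.2, *Il3* at 63.9 ± 25.0 and *Csf2* at 49.6 ± 18.5, again with overlap between neighbours. *Il3ra* at 11.2 ± 2.14 and *Csf2rb* at 1.28 ± 0.259 followed, each apart from its neighbours. *Csf1* at 0.747 ± 0.185 and *Csf2rb2* at 0.619 ± 0.191 overlapped. The 4 ligands thus lay above every receptor gene of the set in the *Pgam* ASO libraries, whereas in scrambled ASO libraries *Lif* alone lay above *Il3ra* without overlap.

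**Figure D2:**
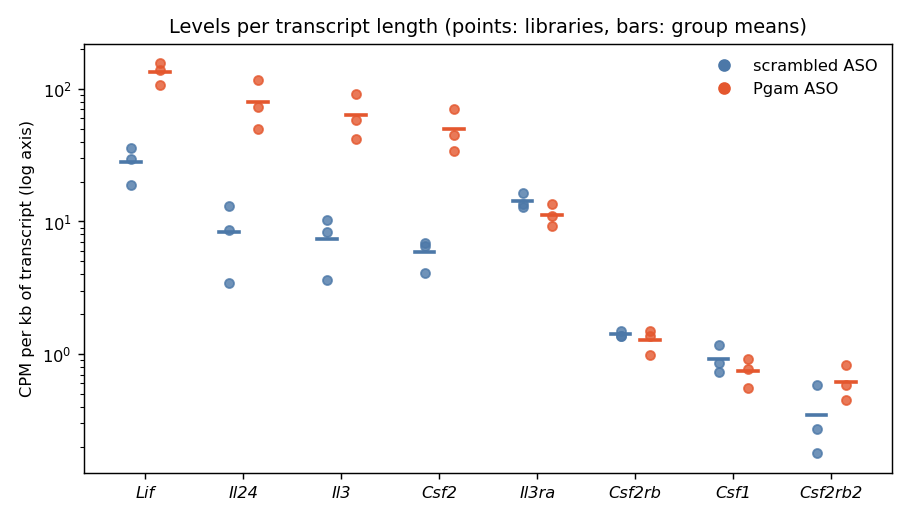
Levels of the 8 genes as CPM per kb of transcript on a log axis, with points for libraries and short bars for group means. *Lif*, *Il24*, *Il3* and *Csf2* lie above *Il3ra* in the *Pgam* ASO libraries, and *Csf2rb*, *Csf1* and *Csf2rb2* lie near or below 1 in both groups.

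To find the genes with profiles most like the 4 ligands, log2 CPM values were centred on each gene's mean over the 6 libraries and compared by their root mean square (RMS) difference, which is small when profiles match. Genes outside the set with a mean of at least 1 CPM were compared. Among them *Lilr4b*, a gene of the leukocyte immunoglobulin-like receptor family, was nearest to *Csf2* (RMS difference 0.105) and to *Il3* (0.237). It was also among the nearest to *Il24* (0.358). It had 30, 18 and 31 counts in the scrambled ASO libraries and 307, 172 and 139 in the *Pgam* ASO libraries. *Il3* was also like *Il2* (0.323) and *Il4* (0.348), and *Csf2* was also like *Il4* (0.257) and *Htr1b* (0.330), a serotonin receptor gene. *Il24* was most like *Il13* (0.257), which had 157, 61 and 160 counts against 2451, 1405 and 943, and then like *Lilr4b* and *Il9* (0.440). *Lif* had other neighbours, namely *Pparg* (0.148), a nuclear receptor, *Atf3* (0.160), a stress-responsive transcription factor, and *Tnfrsf8* (0.186), which encodes CD30. For scale, *Il3* and *Csf2* differed from each other by 0.227, *Il3* and *Il24* by 0.294, and *Il24* and *Lif* by 0.639. All these genes share the contrast that chose the set, so likeness is a description over 6 libraries of 2 groups.

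The other genes of these pathways were taken from 7 lists that hold 73 genes besides the 8. Of these, 48 were tested, of which 7 were higher and 10 lower in *Pgam* ASO libraries at an adjusted p under 0.05 and 31 did not pass. The 17 called are 35.4% of the 48, beside 17.2% over all tested genes, and nothing is read from this because the lists were chosen with earlier results known, which holds for each list below as well. The median log2 fold change was 0.00 over these 48 genes and -0.01 over all tested genes. The count of 17 fell to 6 and 9 without scrambled ASO replicates 1 and 2 and to 8 and 5 without *Pgam* ASO replicates 1 and 2, and 5 of the 17 genes (*Il5*, *Il10ra*, *Pim2*, *Jun* and *Rel*) passed whichever library was left out. With a replicate block in the fit, *Il10rb*, *Clcf1*, *Il11ra1*, *Cish*, *Socs3*, *Nfatc2*, *Fos* and *Rela* did not pass, at adjusted p of 0.0659 to 0.120. Fewer producing cells and less RNA per cell cannot be told apart in such bulk libraries.

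**Figure D3:**
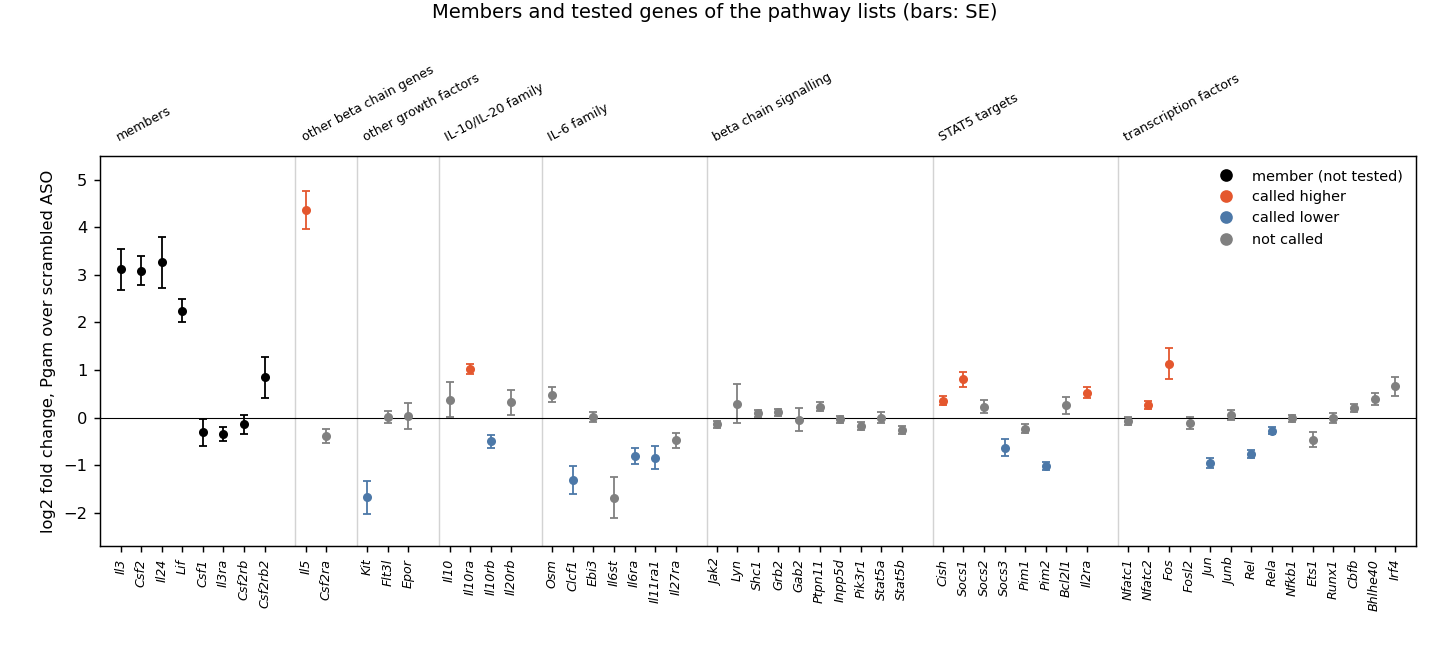
Fitted log2 fold changes (*Pgam* over scrambled ASO libraries, bars for the SE) of the 8 genes in black and of the 48 tested genes of the pathway lists, coloured by call. *Il5* has the highest value, 4.37, and the genes for signalling proteins at the beta chain lie between -0.26 (*Stat5b*) and 0.29 (*Lyn*).

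*Il5*, the remaining ligand of the shared beta chain, rose with *Il3* and *Csf2*. It had 9, 8 and 9 counts in scrambled ASO replicates 1 to 3 and 247, 151 and 105 in *Pgam* ASO replicates 1 to 3, a log2 fold change of 4.37 ± 0.39 (SE) with an adjusted p of 0.000401. The scrambled ASO counts lay under the cutoff of the filter, so *Il5* was tested only because its *Pgam* ASO counts were high. That p is therefore given as a description. The start of *Il5* lies 546 kb from that of *Il3*. Per length it reached 6.78 ± 3.00 CPM per kb (SD, n = 3) in *Pgam* ASO libraries, below the 49.6 of *Csf2*. *Csf2ra*, the alpha chain for GM-CSF, had 230, 221 and 214 against 167, 143 and 161 counts and a log2 fold change of -0.39 ± 0.14 (adjusted p = 0.0782). *Il5ra* had at most 2 counts in scrambled and 5 to 7 in *Pgam* ASO libraries and was removed by the filter, and without the filter its adjusted p was 0.0972.

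Few other haematopoietic growth factor genes were counted. Of the 12 listed, 3 were tested and 9 were removed by the filter, and *Csf3*, *Il34*, *Kitl*, *Epo* and *Thpo* had at most 3 counts in any library. *Kit*, the receptor for stem cell factor, fell by 1.68 ± 0.35 on the log2 scale (adjusted p = 0.0142), from 94, 100 and 97 to 15, 23 and 47 counts. That call was lost without scrambled ASO replicate 1 (0.0506) or *Pgam* ASO replicate 2 (0.0851), the highest of its alternatives. *Flt3l* and *Epor* had log2 fold changes of 0.02 ± 0.13 and 0.04 ± 0.27 and did not pass. *Csf1r*, the receptor for M-CSF, had 0 to 5 counts per library.

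The family of *Il24* was sparsely counted as well, with 4 of 11 genes tested. *Il10ra*, the ligand-binding chain for IL-10, rose by 1.01 ± 0.10 on the log2 scale (adjusted p = 0.000731), from 994, 878 and 970 to 1643, 1717 and 1983 counts. *Il10rb*, the chain shared by several receptors of this family, fell by 0.50 ± 0.14 (adjusted p = 0.0375), a call that was lost without scrambled ASO replicate 1 (0.113) or 2 (0.0921) and without *Pgam* ASO replicate 1 (0.117) or 2 (0.135). *Il10* itself had 35, 25 and 44 against 48, 51 and 27 counts, with an adjusted p of 0.493. *Il22* had 4, 2 and 4 against 23, 17 and 5 counts and was removed by the filter, without which its adjusted p was 0.0106. *Il19* and *Il20*, both upstream of *Il24* at 52.7 and 24.0 kb from start to start, had at most 3 counts in any library. Of the chains that form the IL-24 receptors, *Il20rb* had 41 to 67 counts, *Il20ra* had at most 1 and *Il22ra1* had 0 in every library, which allows up to 0.162 to 0.192 CPM depending on the library (3 counts).

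In the IL-6 family, to which *Lif* belongs, 3 of the 7 tested genes fell and 0 rose (42.9% called, beside 17.2% over all tested genes), with a median log2 fold change of -0.81. *Clcf1*, a ligand of the CNTF receptor, fell by 1.32 ± 0.30 on the log2 scale (adjusted p = 0.0276). *Il6ra* and *Il11ra1*, the alpha chains for IL-6 and IL-11, fell by 0.81 ± 0.17 (adjusted p = 0.0176) and 0.84 ± 0.25 (adjusted p = 0.0436). *Il6st*, which encodes gp130, had 1261, 2037 and 806 counts in scrambled and 238, 319 and 618 in *Pgam* ASO libraries, and its log2 fold change was -1.68 ± 0.43 (adjusted p = 0.0502). *Osm*, the closest relative of *Lif* and 21.1 kb away, had 704, 459 and 599 against 767, 730 and 798 counts (log2 fold change 0.48 ± 0.15, adjusted p = 0.0556). *Lifr*, the LIF receptor chain, had 0 to 2 counts per library. Leaving out scrambled ASO replicate 1 or *Pgam* ASO replicate 1 or 2 ended all 3 calls and leaving out scrambled ASO replicate 2 ended those of *Clcf1* and *Il11ra1*, with adjusted p of at most 0.110, 0.0878 and 0.142 for *Clcf1*, *Il6ra* and *Il11ra1*. DESeq2 called 6 of the 7 genes.

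None of the 10 genes for signalling proteins at the beta chain passed edgeR's test (0%, beside 17.2% over all tested genes), 2 had an unadjusted p under 0.05, and DESeq2 called 0. The groups did not overlap for 2 of the 10 with higher and 3 with lower values in *Pgam* ASO libraries, and for 39.5% of all tested genes. Their median log2 fold change was -0.02. *Jak2*, the kinase bound to the beta chain, had a log2 fold change of -0.14 ± 0.08, and *Stat5a* and *Stat5b*, the transcription factors it activates, had values of 0.00 ± 0.11 and -0.26 ± 0.09. The STAT5 target genes, which respond to IL-2 as well as to the beta chain cytokines, were divided, with 3 of 8 higher, 2 lower and 3 not passing (62.5% called, beside 17.2% over all tested genes). *Socs1*, a feedback inhibitor, rose by 0.80 ± 0.16 (adjusted p = 0.0147), *Il2ra*, the IL-2 receptor alpha chain, by 0.52 ± 0.12 (0.0185) and *Cish*, another feedback inhibitor, by 0.36 ± 0.10 (0.0330). *Pim2*, a survival kinase, fell by 1.01 ± 0.08 (adjusted p = 0.000251), from 2391, 2380 and 2241 to 1105, 1028 and 1090 counts, and *Socs3* fell by 0.63 ± 0.17 (adjusted p = 0.0375). *Pim2* passed with each library left out, whereas *Socs1* lost its call without *Pgam* ASO replicate 2 (adjusted p = 0.0674) and *Il2ra*, *Cish* and *Socs3* lost theirs without scrambled ASO replicate 1 or *Pgam* ASO replicate 1 or 2, and *Cish* and *Socs3* without scrambled ASO replicate 2 as well, with adjusted p of at most 0.0967, 0.115 and 0.141. *Cish* also lost its call without *Pgam* ASO replicate 3 (0.0544).

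Transcription factors known to act on *Il3* or *Csf2* were likewise divided, with 2 of 14 higher, 3 lower and 9 not passing (35.7% called, beside 17.2% over all tested genes). *Jun*, an AP-1 subunit, fell by 0.95 ± 0.11 on the log2 scale (adjusted p = 0.00101), from 1172, 1005 and 973 to 471, 530 and 508 counts. *Rel*, the NF-κB subunit c-Rel, fell by 0.77 ± 0.09 (adjusted p = 0.000967), from 2985, 3182 and 2597 to 1718, 1478 and 1565 counts. *Rela* fell by 0.28 ± 0.08 (adjusted p = 0.0407). *Fos*, the AP-1 partner of *Jun*, was called higher by 1.13 ± 0.33 (adjusted p = 0.0428), although its groups overlapped at 112, 65 and 63 against 91, 184 and 213 counts, and *Nfatc2* rose by 0.26 ± 0.08 (adjusted p = 0.0443). The calls of *Jun* and *Rel* held with each library left out. Those of *Nfatc2*, *Fos* and *Rela* did not: *Nfatc2* lost its call without any 1 of the 6 libraries, *Fos* without any but *Pgam* ASO replicate 1 and *Rela* without any but scrambled ASO replicate 3, with adjusted p of at most 0.149, 0.156 and 0.177. DESeq2 called 8 of the 14.

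Genes near the 8 on the chromosomes were examined as well. Within 250 kb of a gene of the set, measured between gene bodies, 110 other genes were listed and 39 were tested. Distances given below run from start to start and can be longer, such as 385 kb between *Atxn7* and *Il3ra*. Of the 39 tested genes, 4 were higher and 3 lower at an adjusted p under 0.05, with a median log2 fold change of 0.15. These 7 are 17.9% of the 39, beside 17.2% called over all tested genes. Around *Il3* and *Csf2*, 1 of 4 tested genes passed. *Acsl6*, a long-chain acyl-CoA synthetase gene that starts 36.5 kb upstream of *Il3*, rose by 1.42 ± 0.15 on the log2 scale (adjusted p = 0.000768), from 133, 128 and 147 to 330, 305 and 387 counts. The other 3, *Pdlim4*, *P4ha2* and *Fnip1*, start 167 to 198 kb from *Il3* and had log2 fold changes of 0.15 to 0.49 without passing. Around *Il24*, 3 of 8 tested genes passed. *Fcmr*, the IgM Fc receptor gene 21.8 kb downstream, rose by 1.47 ± 0.37 (adjusted p = 0.0275) and *Mapkapk2*, a kinase gene 210 kb upstream, by 0.70 ± 0.14 (adjusted p = 0.0121). The log2 fold change of *Fcmr* was 2.07 without scrambled ASO replicate 3. *Pigr*, the polymeric immunoglobulin receptor gene 60.8 kb downstream of *Il24*, fell by 2.20 ± 0.48 (adjusted p = 0.0168), with 18, 18 and 15 counts against 4, 2 and 4.

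Around *Lif*, 0 of 11 tested genes passed edgeR's test (0%, beside 17.2% over all tested genes), 7 had an unadjusted p under 0.05 and DESeq2 called 1. The groups did not overlap for 4 of the 11 with higher and 3 with lower values in *Pgam* ASO libraries, and for 39.5% of all tested genes. Around *Csf1* 0 of 3 passed, with 0 at an unadjusted p under 0.05, 0 called by DESeq2 and 0 with separate groups. Near *Csf2rb* and *Csf2rb2*, *Kctd17* rose by 0.71 ± 0.10 on the log2 scale (adjusted p = 0.00235) and *C1qtnf6* fell by 0.95 ± 0.17 (adjusted p = 0.00952), and near *Il3ra*, *Atxn7* fell by 0.49 ± 0.11 (adjusted p = 0.0210). The calls of *Acsl6* and *Kctd17* held with each library left out. The 7 calls near the set fell to 2 without scrambled ASO replicate 1 and to 2 without *Pgam* ASO replicate 2, the libraries whose absence ended the calls of *Fcmr*, *Mapkapk2*, *Pigr*, *C1qtnf6* and *Atxn7*, and rose to 13 without *Pgam* ASO replicate 3. *Pigr* and *Atxn7* also lost their calls without *Pgam* ASO replicate 1 and *Fcmr* without scrambled ASO replicate 2, with adjusted p of at most 0.0935, 0.0889 and 0.105 over the alternatives. *Mapkapk2* and *C1qtnf6* reached 0.0592 and 0.0632 at most.

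**Figure D4:**
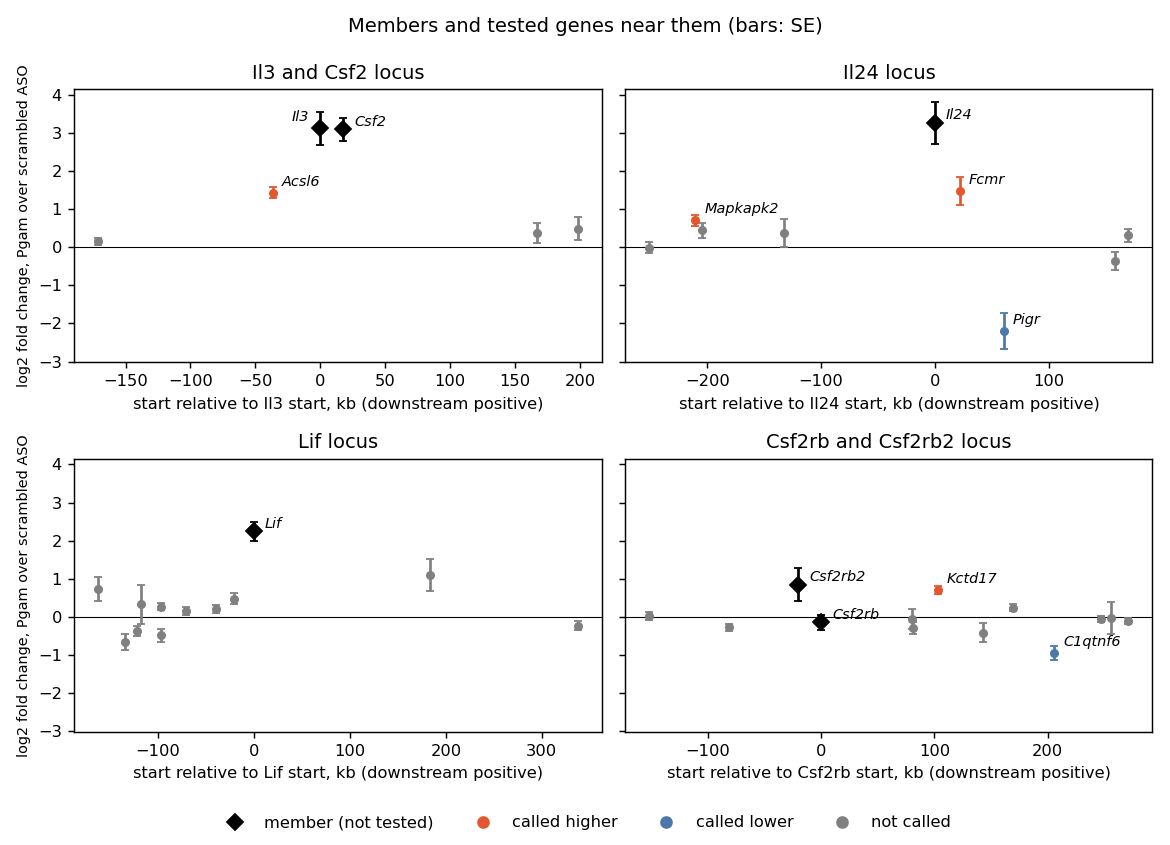
Fitted log2 fold changes (bars for the SE) of the genes of the set (diamonds) and of tested genes within 250 kb between gene bodies (circles, coloured by call). They are set against the distance of their start from that of *Il3*, *Il24*, *Lif* or *Csf2rb* in kb. *Il3* and *Csf2* stand at 3.12 and 3.09 with *Acsl6* at 1.42 beside them, and edgeR called no tested gene near *Lif* (DESeq2 called 1).

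Naïve cells were purified by negative selection before culture, but the cultures were not sorted afterwards, so markers of other cell types that make or answer these cytokines were examined in every library. Mast cells and basophils produce and respond to IL-3. Their 12 markers summed to 8.95, 9.18 and 9.42 CPM in scrambled ASO replicates 1 to 3 and 9.75, 10 and 8.28 CPM in *Pgam* ASO replicates 1 to 3, so the groups overlapped. *Kit*, which also marks other progenitors, was the most counted of them and fell, as given above, and without it the sums were 3.66, 3.78 and 3.41 against 8.82, 8.53 and 5.5 CPM. *Gata2* was called higher, by 1.59 ± 0.48 on the log2 scale (adjusted p = 0.0469), at 10, 8 and 9 against 42, 17 and 17 counts, but that call was lost without any library but *Pgam* ASO replicate 3, with an adjusted p of 0.221 at most. *Cpa3* had 17, 28 and 12 against 41, 35 and 36 counts (adjusted p = 0.0526). *Mcpt8*, a basophil protease gene, had 0, 2 and 3 against 16, 11 and 5 counts and *Fcer1a*, the IgE receptor alpha chain gene, 0, 2 and 0 against 4, 8 and 6, and both were removed by the filter, without which their adjusted p was 0.0166 and 0.0770. *Mcpt4* was at 0 in every library. The groups overlapped for the other 6 markers, at 28, 7 and 16 against 21, 36 and 21 counts for *Hdc* (adjusted p = 0.331) and at most 14 counts in any library for *Ms4a2*, *Cd200r3*, *Tpsb2*, *Prss34* and *Cma1*.

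The markers of macrophages and dendritic cells, which respond to GM-CSF and M-CSF, summed to 8.44, 8.91 and 8.55 CPM in scrambled and 6.40, 5.84 and 7.63 CPM in *Pgam* ASO libraries, led by *Cd68*. Without *Cd68* the groups overlapped, at 3.32, 3.62 and 2.17 against 3.04, 2.37 and 3.20 CPM. *Clec9a* and *Siglech* were at 0 in every library and 8 of the 12 markers had fewer than 10 counts in every library, and 0 of 3 tested genes passed (1 at an unadjusted p under 0.05, 0 by DESeq2). Neutrophil and eosinophil markers, led by *S100a9*, summed to 4.33, 2.54 and 1.80 against 5.28, 4.56 and 3.61 CPM, *Retnlg* was at 0 throughout and 0 of 3 tested genes passed (0 at an unadjusted p under 0.05, 0 by DESeq2). Stromal and endothelial markers, led by *Col1a1*, summed to 1.58, 2.92 and 2.66 against 0.621, 1.15 and 1.48 CPM, with 0 of 1 tested gene passing by either tool or at an unadjusted p under 0.05.

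B cell markers moved the other way from the ligands, at 343, 474 and 235 CPM in scrambled and 91.5, 125 and 155 CPM in *Pgam* ASO libraries. Without *Ighm* the sums were 23.2, 27.8 and 19.6 against 16, 14.4 and 12.8 CPM. *Ighm*, the IgM heavy chain gene, fell by 1.58 ± 0.33 on the log2 scale (adjusted p = 0.0282), and *Ighd* fell by 2.05 ± 0.33 (adjusted p = 0.00537). *Ighd* passed with each library left out, but *Ighm* did not pass without scrambled ASO replicate 1 (0.0792) or 2 (0.0954), without *Pgam* ASO replicate 1 (0.0639) or 2 (0.102), or without the filter (0.106), the highest of its alternatives. The other 7 B cell markers taken without *Ighm* and *Ighd* held 2 genes with higher and 4 with lower fitted values among the 6 tested, and 0 of them passed edgeR's test, 2 had an unadjusted p under 0.05 and DESeq2 called 2. Of the CD8, NK and gamma delta T cell markers, *Cd8a* rose by 1.12 ± 0.29 (adjusted p = 0.0286) and *Eomes*, the most counted and also made by CD4 T cells, fell by 0.82 ± 0.19 (adjusted p = 0.0214), and *Klrb1c* and *Klra8* were at 0 throughout. *Cd8b1*, the gene of the other CD8 chain, had 156, 193 and 139 against 122, 113 and 159 counts (log2 fold change -0.20 ± 0.18), and neither it nor *Trdc* (-0.40 ± 0.23) or *Zbtb16* (0.41 ± 0.34) passed. That list summed to 68.6, 51.4 and 70.5 against 47.9, 42.1 and 44.2 CPM, and without *Eomes* its groups overlapped, at 16.1, 19.3 and 15.5 against 19.7, 15.2 and 20.1 CPM. The call of *Cd8a* was lost without scrambled ASO replicate 1 or *Pgam* ASO replicate 1, and that of *Eomes* without these or *Pgam* ASO replicate 2, with adjusted p of at most 0.100 and 0.0893.

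T cell markers, led by *Cd4*, summed to 3134, 3368 and 2930 CPM in scrambled and 2518, 2547 and 2672 CPM in *Pgam* ASO libraries. Of the 8, *Cd28* fell by 0.66 ± 0.09 on the log2 scale (adjusted p = 0.00183), *Cd5* by 0.49 ± 0.11 (adjusted p = 0.0193) and *Trac* by 0.30 ± 0.09 (adjusted p = 0.0416), and 0 were higher. These 3 are 37.5% of the 8, beside 17.2% called over all tested genes, and nothing is read from that share. The groups did not overlap for 7 of the 8, all with lower values in *Pgam* ASO libraries, and for 39.5% of all tested genes in either direction. An unadjusted p under 0.05 was found for 7 of the 8, and DESeq2 called 4. *Cd28* passed with each library left out. *Cd5* lost its call without scrambled ASO replicate 1 or *Pgam* ASO replicate 2 (adjusted p of 0.106 at most), and *Trac* without these, scrambled ASO replicate 2 or *Pgam* ASO replicate 1 (0.153 at most). The part of any of these cell types in the levels of the ligands was not tested.

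**Figure D5:**
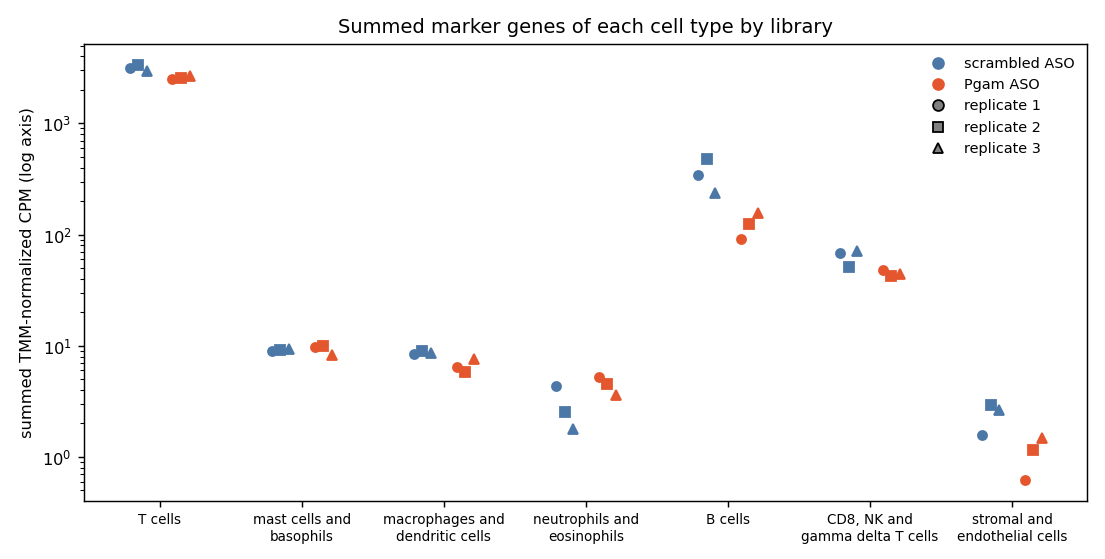
Summed TMM-normalized CPM of the marker genes of each cell type on a log axis, 1 symbol per library. T cell markers sum to 2518 CPM or more in every library, and the B cell sum is lower in all *Pgam* ASO libraries, at 91.5 to 155 against 235 to 474 CPM.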

How the data were processed

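The authors quantified RNA-seq reads with kallisto and deposited estimated counts of Ensembl genes for 6 libraries in 1 table, without normalization. The build is GRCm38 per the submitters' processing notes. The kallisto version and the annotation are not given in the sources used here. The deposited values are whole numbers, so rounding changed none, and all 6 columns were used. Symbols, positions and lengths came from GENCODE M21, which held 52073 of the 56748 genes. The table also holds newer identifiers, so transcript sets may differ. A count of 0 in every library was listed for 28236 genes.

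The fit ran in R 4.3.3, using edgeR 4.0.16: filterByExpr, TMM scaling, the robust quasi-likelihood test (two-sided) and p-values adjusted by Benjamini-Hochberg over the 14936 genes tested, with a threshold of 0.05. Alternatives used DESeq2 1.42.0, other scalings and filters, a replicate block, and 5 of the 6 libraries. The fit was tested on simulated data. With totals of 15860476 to 18032805 per library, 3 counts correspond to at most 0.192 CPM. No library was a copy of another by chi-square of their counts. Errors are SD over 3 libraries or the SE of the fit. The genes of the set and the lists were chosen with earlier results of these data known. Genes named from the lists and near the set were those called, up to 4 per list by size of change, and the most counted marker. For the 4 ligands, the 3 most alike genes were named. Others were named for their role or after their values were seen.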

Additional observations from a re-analysis of the deposited data

How the results depend on the processing

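The log2 fold changes of *Il3*, *Csf2*, *Il24* and *Lif* stayed positive in all 12 alternatives, between 2.77 and 3.43, 2.76 and 3.31, 2.88 and 3.73, and 2.03 and 2.46. These genes were chosen by this contrast and their groups do not overlap, so nothing is read from the constant sign. Of 49 values of the 8 genes under other tools, scalings, filters and the block, 48 moved by less than 1 SD between replicates. The exception was *Csf2rb* summed with *Csf2rb2*, at 0.11 in place of -0.14. For the other called genes that are named, 18 of 189 such values lost their call and 79 of 192 did so when 1 library was left out, and no call changed sign.

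The number of genes called was 453 at an adjusted p under 0.01, and 391 to 3484 with 1 library left out. Pathway genes numbered 5 to 22 with 1 library left out. DESeq2 called 6 in place of 3 genes of the IL-6 family, 8 in place of 5 transcription factors and 1 in place of 0 near *Lif*. Alternatives for the number of called cell type markers, for genes near the set and for genes of like profile were chosen after seeing the data. Near the set 13 genes were called without the filter and 2 to 13 with 1 library left out, and of the markers of other cell types 10 and 1 to 9. The causes were not tested.

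With the replicate block, 1235 genes in place of 2565 were called, 9 pathway genes in place of 17 and 3 markers of other cell types in place of 6. It also ended the calls of *Trac*, *Gata2*, *Ighm*, *Cd8a* and *Atxn7*. Scaling by library size alone ended those of *Nfatc2*, *Fos* and *Gata2*, and fitting without the filter those of *Rela* and *Ighm*. Same-numbered libraries did not deviate together, with Pearson r over genes of 0.05, -0.03 and -0.24 for numbers 1 to 3, so the numbers were not taken to pair the samples. Counts of 10 or fewer in some libraries limit *Il5*, *Gata2*, *Pigr*, *Htr1b* and most markers of other cell types. *Il5*, *Gata2*, *Pigr* and *Htr1b* passed the filter only through the group where they were higher, so their values are given as a description. The log2 fold change of *Htr1b* was 3.55 without scrambled ASO replicate 3, in place of 3.00.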
